A study of Mus musculus with 19 samples.

Results

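The pan-reactive astrocyte genes described here are Serpina3n, Osmr, Hspb1, Timp1, Cxcl10, Cp, Cd44, S1pr3, Stat3 and Socs3, a set by which reactive astrocytes are commonly recognised. They were taken by gene symbol from a matrix of 21749 genes, and all 10 were found, each as 1 row. All 10 also passed the filter on low values, a log2 value of at least 3.32 in at least 3 of the 19 libraries, which left 20644 genes (94.9%) for testing. RNA bound to ribosomes was captured from cortical astrocytes by translating ribosome affinity purification (TRAP), in which a green fluorescent tag on the ribosomal protein L10a, driven by regulatory sequence of the astrocyte gene Aldh1l1, is pulled down with antibody-coated beads. Every group carried that transgene (Tg(Aldh1l1-EGFP/Rpl10a)JD130Htz, on a B6;FVB background) and the labels name no drug or injury for any group. The groups were females in metestrus (8 libraries), proestrus (3 libraries, labelled Pro-Day) or estrus (4 libraries), all collected at 09:00, and males (4 libraries), whose hour of collection the labels leave out, as they do the age of every group. The labels do not say whether the libraries came from separate animals, so p-values measure the spread between libraries only, which may be technical.

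An astrocyte that meets injury or inflammation enlarges, makes more intermediate filament and switches on a shared set of genes, many of them driven by cytokines of the interleukin 6 family. Such cytokines bind receptors that pair with gp130, among them the oncostatin M receptor Osmr, and the attached Janus kinases activate the transcription factor Stat3. Stat3 in turn switches on Socs3, whose product blocks the same receptors and ends the signal. Other genes of the set encode secreted proteins (Serpina3n, Cp, Timp1, Cxcl10), surface receptors (Cd44, S1pr3) and the chaperone Hspb1. Several are also made by microglia, vessels or choroid plexus, so in these bulk pulldowns fewer cells of a type and less RNA per cell cannot be told apart.

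The values are the deposited log2 expression values, whose scaling to gene length is not stated, and levels are therefore compared between libraries, with no gene's abundance read against another's. Of the metestrus libraries 2 belonged to batch 2, 1 to batch 3 and 5 to batch 4. Proestrus had 2 in batch 2 and 1 in batch 3, estrus 3 and 1, and all 4 males were in batch 4. Differences between stages thus rest on batches 2 and 3, and males against metestrus on batch 4. No batch holds males together with either of these stages, so in their raw levels sex and batch cannot be told apart. A fitted difference would be linked through metestrus alone, and those 2 contrasts were not among the 4 fitted. The sequencing depth is unknown. Taken back from the log scale, values summed to between 1.98e7 and 2.56e7 per library. The 12 astrocyte markers averaged 13.75 to 14.09 on the log2 scale in the 4 groups, 10 neuron markers 12.55 to 12.69, 10 microglia markers 7.59 to 7.87 and 12 endothelial and mural markers 5.28 to 6.73. None of the listed markers of any cell type was below the minimum in every library, which does not place each marker in every group. By the averages of their lists, transcripts of neurons, microglia and vessels were present in every group. Input RNA before the pulldown was not analysed here.

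Socs3 gave the largest difference between stages of any of these genes, and the stretch upstream of its start is shown because a Stat3-type motif lies in it. In the RefSeq annotation of GRCm38.p6, where all 10 genes were matched, the 250 bases before the start of Socs3 lie at chr11:117969367-117969616 on the minus strand. They are printed here 5′ to 3′, with the match to the STAT motif TTCNNNGAA in capitals.
Socs3: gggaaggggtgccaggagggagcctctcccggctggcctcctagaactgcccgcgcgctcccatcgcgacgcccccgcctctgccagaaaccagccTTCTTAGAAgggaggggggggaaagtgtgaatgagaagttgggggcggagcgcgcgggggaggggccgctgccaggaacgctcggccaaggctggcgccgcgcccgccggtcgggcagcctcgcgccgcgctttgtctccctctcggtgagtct
The match begins 154 bases before the RefSeq start. The motif reads the same on both strands. In windows from 250 bases before to 50 bases after the start, 1 of the 10 genes (Socs3) held it, as did 2726 of 32851 promoters (8.3%). A match of letters describes the sequence and does not show binding, and no match says nothing of the factor.

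Of the receptor arm, Osmr was the most scattered signalling gene. In metestrus its log2 level ran from 1.22 through a median of 3.46 to 6.17. The 3 proestrus libraries were at 4.35, 5.68 and 4.05, the 4 estrus libraries at 4.09, 4.45, 4.20 and 5.05, and the males at 4.22, 4.69, 6.28 and 7.06. The metestrus range spans every proestrus and estrus library and the lower 2 males, and 4 metestrus libraries lay below the minimum of 3.32. Proestrus against metestrus gave a log2 fold change of 0.78 ± 1.05 (SE), with a limma adjusted p of 0.810. Males against metestrus gave 1.96 ± 0.86 (SE), with an adjusted p of 0.895.

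Stat3, the transcription factor of the pathway, had estimates close to 0 between the stages. Its log2 level in metestrus ran from 10.50 through a median of 10.71 to 11.09. Proestrus libraries stood at 10.72, 10.72 and 10.44, estrus libraries at 10.78, 10.81, 10.94 and 10.58, and males at 10.94, 10.88, 11.31 and 11.26. The 2 highest libraries of the whole set were males, but the male and metestrus ranges overlapped. Proestrus against metestrus differed by -0.15 ± 0.18 (log2 fold change ± SE), estrus against proestrus by 0.13 ± 0.17 and males against metestrus by 0.31 ± 0.14, with adjusted p-values of 0.780, 0.759 and 0.909. The 95% interval of proestrus against metestrus ran from -0.51 to 0.22, and that of estrus against metestrus from -0.36 to 0.33.

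Socs3, the feedback inhibitor, was lowest in proestrus and highest in males. Its log2 level in metestrus ran from 4.50 through a median of 4.94 to 5.26. The 3 proestrus libraries were at 3.09, 1.51 and 3.64, all below every metestrus library, and 2 of them lay under the minimum of 3.32. The estrus libraries were at 4.43, 4.61, 3.54 and 5.02, and the third of them lay within the proestrus range. The males were at 5.91, 5.52, 5.64 and 5.49, all above every female library. Ordered by mean, the groups ran from proestrus (2.74 ± 1.11, SD, n = 3) through estrus (4.40 ± 0.63, n = 4) and metestrus (4.93 ± 0.26, n = 8) to males (5.64 ± 0.19, n = 4). Estrus overlapped both of its neighbours in that order, while metestrus and males did not overlap.

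The low proestrus level of Socs3 did not pass the threshold. Proestrus against metestrus gave a log2 fold change of -2.19 ± 0.55 (SE), which is 4.57-fold lower, with a 95% interval from -3.34 to -1.04 and an adjusted p of 0.0599. Proestrus replicate 2 alone lay far below the other libraries, and without it the difference was -1.65. In batch 2 the mean was 4.94 in metestrus and 2.30 in proestrus, and in batch 3 the single libraries were at 4.93 and 3.64. Estrus against proestrus gave 1.72 ± 0.52, with an adjusted p of 0.104. Estrus against metestrus gave -0.47 ± 0.52 and males against metestrus 0.71 ± 0.46, with adjusted p-values of 0.773 and 0.974. Without the batch term the adjusted p of proestrus against metestrus was 0.00587, and with a variance prior lacking trend and robustness it was 0.0134. The deposited matrix lacks 4 directions of variation between libraries, and with absent directions added to group and batch it was 0.173, and within batches 2 and 3 alone it was 0.426, at the same fold change. Leaving out 1 library gave adjusted p-values from 0.0459 (without estrus replicate 3) to 0.222 (without proestrus replicate 2).

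**Figure D1:**
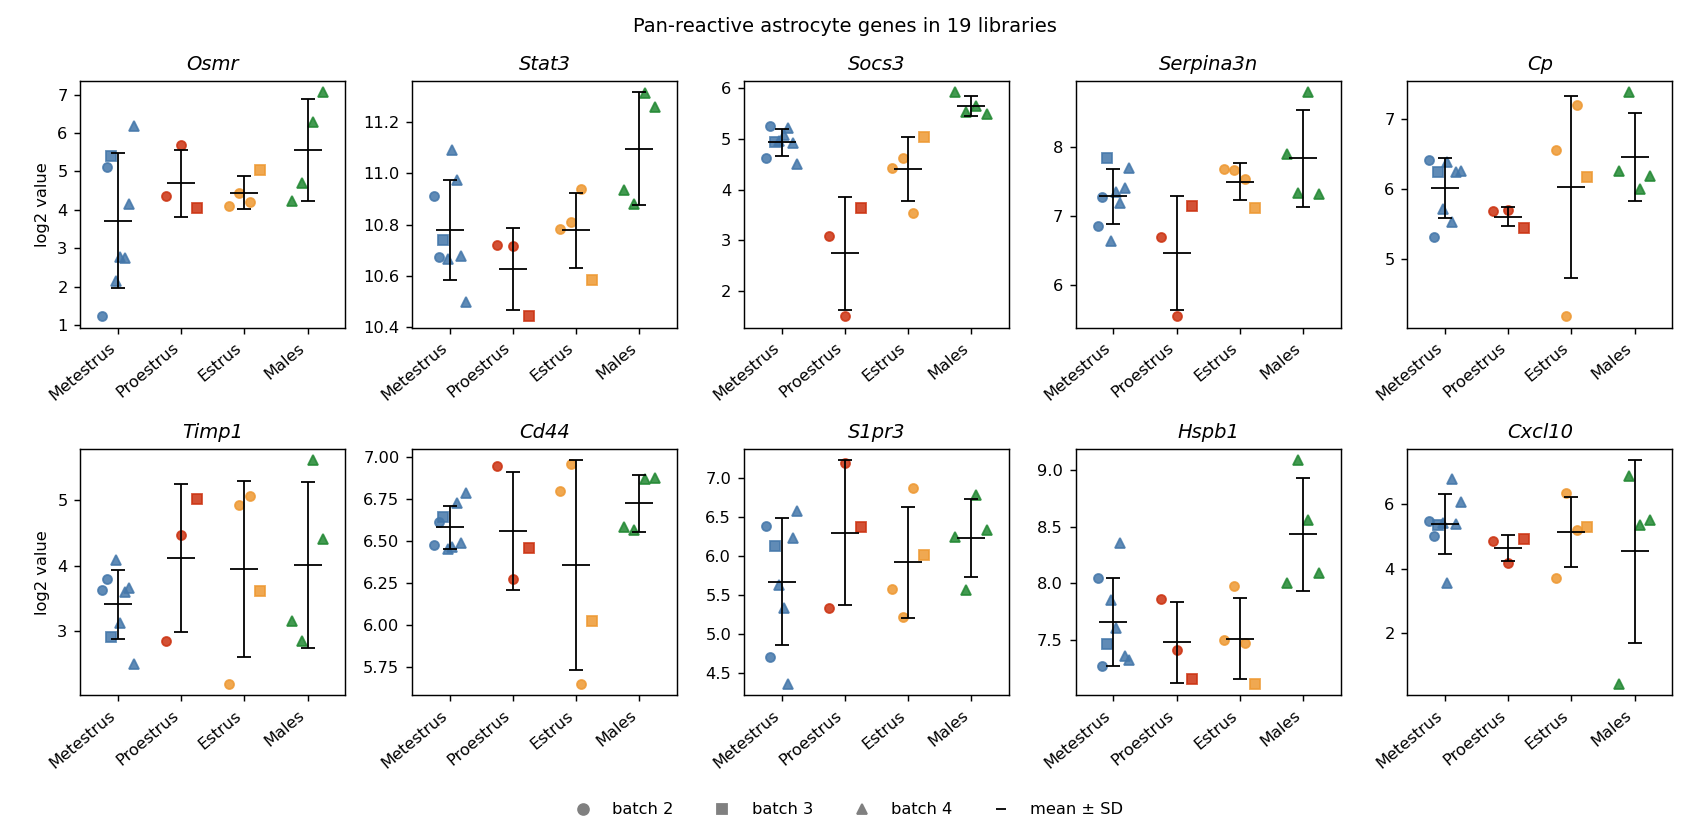
Log2 level of each of the 10 genes (vertical axes, deposited log2 value) in the 19 libraries, by group, with 1 point per library shaped by batch and bars for the group mean ± SD. Socs3 in the 3 proestrus libraries sits at 1.51 to 3.64, below all 8 metestrus libraries, and in the 4 males at 5.49 to 5.91, above every female library.

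Among the secreted proteins, Serpina3n, a protease inhibitor released by reactive astrocytes, was lowest on average in proestrus. Its log2 level in metestrus ran from 6.65 through a median of 7.32 to 7.84. Proestrus libraries were at 6.70, 5.55 and 7.15, estrus libraries at 7.69, 7.67, 7.53 and 7.11, and males at 7.90, 7.33, 8.80 and 7.32. Proestrus replicate 2, the lowest library for Socs3, was also the lowest for Serpina3n, and 1 estrus library overlapped the proestrus range. Estrus against proestrus gave a log2 fold change of 1.07 ± 0.39 (SE), with an adjusted p of 0.189. Proestrus against metestrus gave -0.86 ± 0.42, with an adjusted p of 0.386, and males against metestrus 0.57 ± 0.34, with an adjusted p of 0.974. Without proestrus replicate 2 the estrus difference was 0.62 and the proestrus difference from metestrus -0.43, and without male replicate 3 the male difference was 0.25. The difference between estrus and proestrus was seen within batch 2 (7.63 against 6.12), but in batch 3 the single libraries were at 7.11 and 7.15.

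Cp encodes ceruloplasmin, a copper enzyme that oxidises iron for export. Its log2 level was 5.68, 5.70 and 5.44 in proestrus, a narrow band, and 6.56, 4.18, 7.21 and 6.17 in estrus, the widest. In metestrus it ran from 5.31 through 6.25 to 6.42, and the males were at 6.25, 7.39, 6.01 and 6.18. Its differences in the 4 comparisons were between -0.39 and 0.43 on the log2 scale, with adjusted p-values of at least 0.768. Choroid plexus also makes much Cp. The 10 choroid plexus and ependymal markers, summed before the log, ranged from 9.60 to 13.19 in metestrus, 9.51 to 10.26 in proestrus, 10.13 to 10.40 in estrus and 9.66 to 13.88 in males, and their part in the Cp values was not tested.

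Timp1, an inhibitor of matrix metalloproteinases, was near the minimum of the filter, with 7 of 19 libraries below 3.32. Its levels spanned 2.50 to 4.08 in metestrus, 2.85 to 5.02 in proestrus, 2.20 to 5.07 in estrus and 2.85 to 5.61 in males, so that all groups overlapped. Proestrus against metestrus gave a log2 fold change of 0.67 ± 0.87 (SE), with an adjusted p of 0.803. Single libraries carried it: it was 0.011 without proestrus replicate 3, 0.26 without metestrus replicate 3 and 1.35 without proestrus replicate 1.

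Cxcl10, a chemokine induced by interferons, depended on single libraries. Males were at 0.41, 6.86, 5.35 and 5.52, so that 1 male library held the lowest value and another the highest of all 19. Metestrus ran from 3.56 through 5.41 to 6.79, proestrus from 4.18 to 4.91 and estrus from 3.71 to 6.34. Males against metestrus gave -0.91 ± 0.91 (log2 fold change ± SE), with an adjusted p of 0.992, and 0.46 without male replicate 1.

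Neither surface receptor passed the threshold in any comparison. Cd44, the receptor of the matrix sugar hyaluronan, stayed between 5.65 and 6.96 in all libraries, and its 4 log2 fold changes lay between -0.23 and 0.14, with adjusted p-values of at least 0.819. The 95% interval of proestrus against metestrus ran from -0.76 to 0.73. S1pr3, a receptor for sphingosine 1-phosphate, ranged from 4.35 to 7.19 and had its extremes in metestrus replicate 6 and proestrus replicate 2. Its log2 fold changes were between -0.36 and 0.61, with adjusted p-values of at least 0.755, and the interval of proestrus against metestrus ran from -0.72 to 1.83.

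Hspb1, the small heat shock protein Hsp27, was highest on average in males. Its log2 level in metestrus ran from 7.27 through a median of 7.53 to 8.35. The proestrus libraries were at 7.86, 7.41 and 7.15 and the estrus libraries at 7.49, 7.97, 7.47 and 7.11. Males were at 8.0, 9.09, 8.56 and 8.09, above every proestrus and estrus library but overlapping the highest metestrus libraries. Males against metestrus gave a log2 fold change of 0.74 ± 0.27 (SE), with an adjusted p of 0.856. Proestrus against metestrus gave -0.12 ± 0.33, with an adjusted p of 0.921.

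Read across the whole set, none of the 10 genes passed the threshold in any comparison. In proestrus against metestrus 0 of 10 were called by limma, beside 0.988% of the 20644 genes tested (48 higher and 156 lower). At an unadjusted p under 0.05 there was 1 member (Socs3), beside 13.1% of all genes. The members' median log2 fold change was -0.132, with 3 positive, against a median of -0.0888 over all genes. Estrus against proestrus called 0 of 10 beside 0.94% of all genes (123 higher and 71 lower), with 2 members (Socs3 and Serpina3n) at an unadjusted p under 0.05 beside 14.5%. The median of the members was 0.0673 there, with 6 positive, and 0.0236 over all genes. Both comparisons share the proestrus libraries, so the opposite signs of Socs3 and Serpina3n in them are not independent.

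Estrus against metestrus called 0 of 10, beside 0.0872% of all genes (4 higher and 14 lower), and no member reached an unadjusted p under 0.05, beside 11.3%. The median log2 fold change was 0.0158 for the members and -0.0689 for all genes. A test for any difference among the 4 groups called 0 of 10 beside 0.635%, with Socs3 (adjusted p = 0.117) and Serpina3n (adjusted p = 0.302) at an unadjusted p under 0.05 beside 13.9% of all genes.

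**Figure D2:**
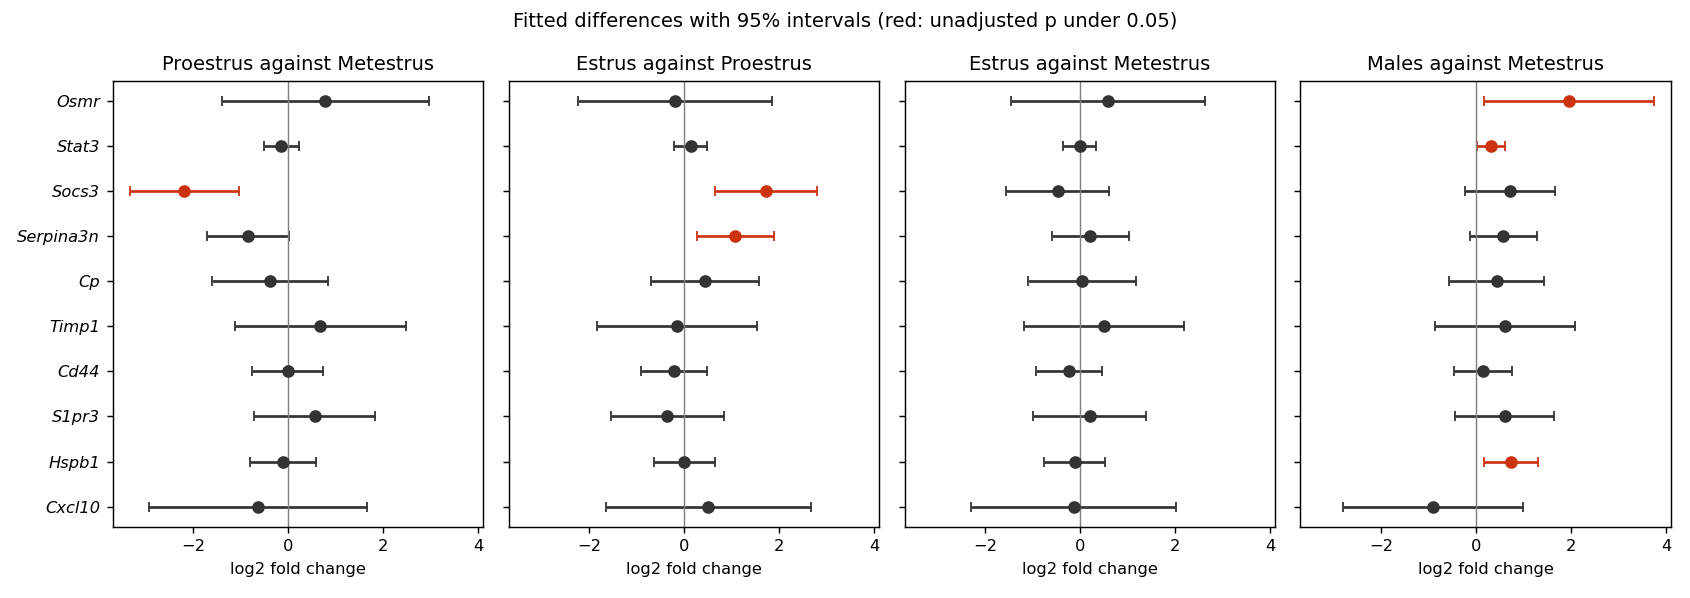
Log2 fold change of each of the 10 genes (horizontal axes) in the 4 comparisons, with the 95% interval of the limma fit. The interval of Socs3 in proestrus against metestrus runs from -3.34 to -1.04, and in males against metestrus 9 of the 10 estimates are above 0.

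In males against metestrus 9 of the 10 estimates were positive, but no member was called. Of the 10 genes, 0 passed beside 0.0242% of all genes (4 higher and 1 lower), and 3 (Hspb1, Osmr and Stat3) were at an unadjusted p under 0.05 beside 5.33%. Cxcl10 was the negative exception. The median log2 fold change was 0.589, whereas 55.3% of all genes were positive, with a median of 0.0373. Male replicate 3 carried part of this: without it the median was 0.337. The mean of the 10 log2 levels was 5.96, 6.67, 7.12 and 6.85 in the 4 males and 5.88 to 6.44 in metestrus. Male replicate 1 lay within the metestrus range, and Cxcl10 at 0.41 enters its mean.

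Group ranges were also compared directly. Between metestrus and proestrus this held for 1 of 10 members (Socs3), beside 8.73% of all genes, and between metestrus and males for 1 (Socs3), beside 1.44%. No member was separated between metestrus and estrus, where 3.33% of all genes were, or between proestrus and estrus, where 9.06% were. Proestrus and males did not overlap for 5 members (Socs3, Serpina3n, Hspb1, Cp and Stat3), beside 21.1%, and estrus and males for 2 (Socs3 and Hspb1), beside 11.9%. Those last 2 pairs share no batch. Socs3 was the only member with every male above every female, a pattern that 0.46% of all genes (95) had.

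Some other lists also had mostly positive estimates in males. Others did not, among them the choroid plexus and ependymal markers (3 of 10 positive) and the genes of Cd44 and hyaluronan (3 of 9). All 12 immediate early genes, which switch on within minutes of a stimulus, had positive log2 fold changes against metestrus, with a median of 0.816. At an unadjusted p under 0.05 there were 8, beside 5.33% of all genes, but 0 were called. Fos gave 1.61 ± 0.49 (SE), with an adjusted p of 0.796. Their summed level before the log ranged from 12.85 to 13.92 in metestrus and from 13.59 to 15.28 in males. Male replicates 1 (15.28) and 3 (14.67) lay above the metestrus range, and replicates 2 (13.83) and 4 (13.59) lay within it. Male replicate 1, with the highest mean over these 12 genes (10.02), also had the highest Socs3. In metestrus the highest such mean (9.16, replicate 4) went with Socs3 at 4.95. The highest metestrus Socs3 (5.26, replicate 2) went with a mean of 8.56. In proestrus against metestrus 7 of the 12 were positive, with a median of 0.0851 and 0 at an unadjusted p under 0.05, beside 13.1% of all genes.

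Endothelial and mural markers were positive for 10 of 12 in males against metestrus, with a median log2 fold change of 0.476 and Flt1 the largest (0.97 ± 0.50, SE, adjusted p = 0.959). Their summed level ranged from 10.42 to 11.12 in metestrus and 10.70 to 11.88 in males. Astrocyte markers were positive for 10 of 12, with a median of 0.147 (Aqp4 0.49 ± 0.22, adjusted p = 0.902), and microglia markers for 4 of 10, with a median of -0.0851. The part of these genes, of the hour of collection and of the male libraries' own differences in the members' levels was not tested.

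**Figure D3:**
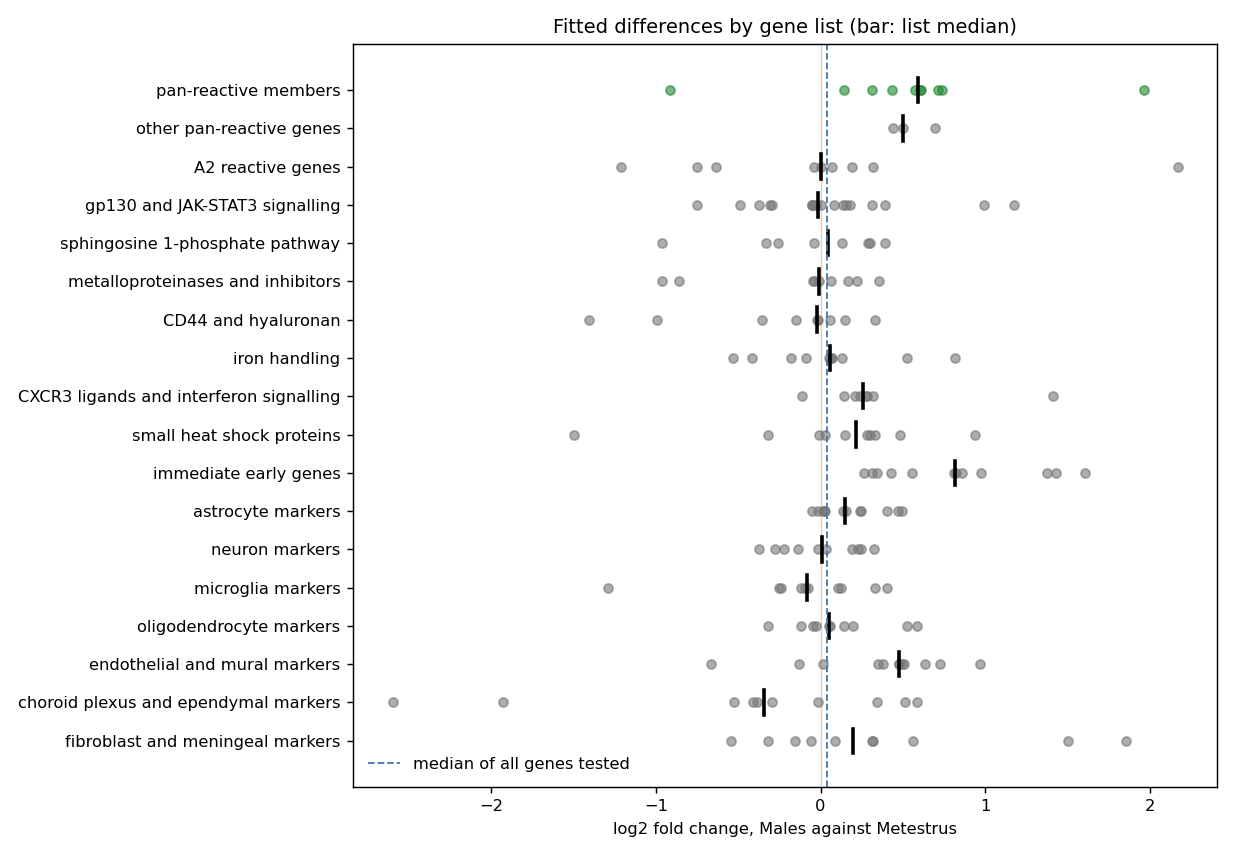
Log2 fold change of single genes in males against metestrus (horizontal axis), by gene list, with 1 point per gene and the median of each list marked. The 12 immediate early genes are all above 0 with a median of 0.816, the 10 pan-reactive genes have a median of 0.589, and the gp130 and JAK-STAT3 genes centre on -0.0125.

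The 3 other pan-reactive genes analysed here, Gfap and Vim (intermediate filaments) and Aspg, were positive in males against metestrus, with a median of 0.499. At an unadjusted p under 0.05 there were 2, beside 5.33% of all genes, and 0 were called. The log2 level of Gfap, the classic marker of reactive astrocytes, was 15.57, 15.28, 15.90 and 15.59 in males and 14.63 to 15.33 in metestrus. Its log2 fold change was 0.70 ± 0.18 (SE), with an adjusted p of 0.650. In proestrus against metestrus, estrus against proestrus and estrus against metestrus, 1, 3 and 2 of the 3 were positive. At an unadjusted p under 0.05 there were 1, 0 and 1, beside 13.1%, 14.5% and 11.3% of all genes. The largest of the 3 in each was Aspg, at 0.55 ± 0.64 (SE), 0.60 ± 0.60 and 1.16 ± 0.60 in that order, with adjusted p-values of at least 0.469. Lcn2 and Steap4, which are usually counted with them, were looked for by symbol and not found in the matrix.

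Around Osmr, Stat3 and Socs3, 18 other genes of gp130 and Janus kinase signalling were tested and 0 were called in any of the 4 comparisons. In males against metestrus 9 of the 18 were positive, with a median of -0.0125. At an unadjusted p under 0.05 there was 1 gene in each comparison but proestrus against metestrus, which had 0. Of all genes 13.1% reached it in that comparison, 14.5% in estrus against proestrus, 11.3% in estrus against metestrus and 5.33% in males against metestrus. The largest differences were Clcf1, a cytokine of the family, in proestrus against metestrus (-0.99 ± 1.30, SE), Pias3, a protein that inhibits Stat3, in estrus against proestrus (0.70 ± 0.27, adjusted p = 0.216), and the interleukin 6 receptor Il6ra in estrus (-0.93 ± 1.20) and males (1.17 ± 1.05) against metestrus. All adjusted p-values of this list's largest differences were at least 0.216. The cytokines Il6 and Osm were looked for by symbol and not found in the matrix.

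Genes around the secreted members gave no call either. Counts at an unadjusted p under 0.05 follow for proestrus against metestrus, estrus against proestrus, estrus against metestrus and males against metestrus, in that order. Of all genes 13.1%, 14.5%, 11.3% and 5.33% reached it. The 9 metalloproteinase genes held 1, 1, 0 and 0, the 10 iron genes 0, 3, 2 and 1, and the 8 interferon genes 1, 3, 1 and 0. Of 9 metalloproteinase genes and inhibitors, Mmp9, an enzyme that Timp1 blocks, differed most in proestrus against metestrus (-1.44 ± 0.73, SE, adjusted p = 0.413), in estrus against proestrus (1.35 ± 0.69) and in males (-0.96 ± 0.60), and Adam17 in estrus against metestrus (-0.37 ± 0.40). Of 10 iron-handling genes, the iron exporter Slc40a1 differed most in 3 comparisons, with -2.02 ± 0.86 in estrus against proestrus (adjusted p = 0.269), 1.42 ± 0.92 in proestrus and 0.82 ± 0.76 in males against metestrus, and the transferrin gene Trf in estrus against metestrus (0.91 ± 0.29, adjusted p = 0.240). The ligand Cxcl9 and Cxcr3, the receptor of Cxcl10, were not found in the matrix. Of 8 other genes around Cxcl10 and interferon signalling, 7 were positive in males against metestrus, with a median of 0.256. Cxcl11, a sister ligand, was the largest there (1.41 ± 0.96), in proestrus (-1.46 ± 1.17) and in estrus (-0.78 ± 1.10) against metestrus, and the interferon receptor Ifnar1 in estrus against proestrus (-0.73 ± 0.26, adjusted p = 0.171). Serpina3n belongs to a cluster of near-identical genes among which reads can be split. Of 10 others listed only Serpina3g was found, below the minimum in 17 of 19 libraries, so the level of Serpina3n is uncertain to that extent.

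Around the surface receptors, 8 sphingosine 1-phosphate genes and 9 genes of Cd44 and hyaluronan were tested, with 0 called. At an unadjusted p under 0.05 there were 0 sphingosine genes in any comparison, and 1, 2, 0 and 0 hyaluronan genes in the 4 comparisons in the same order. The shares of all genes were 13.1%, 14.5%, 11.3% and 5.33%. S1pr2 gave -1.30 ± 0.67 (log2 fold change ± SE) in proestrus and -0.96 ± 0.55 in males against metestrus, S1pr5 gave 1.37 ± 0.70 in estrus against proestrus, and the transporter Spns2 gave -0.67 ± 0.36 in estrus against metestrus. Among the hyaluronan synthases, Has3 gave 1.88 ± 0.90 in proestrus against metestrus, and Has1 gave -2.51 ± 0.95, -1.67 ± 0.95 and -1.41 ± 0.83 in estrus against proestrus, estrus against metestrus and males against metestrus. Their adjusted p-values were at least 0.205.

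Beside Hspb1, 10 other heat shock and small heat shock genes were tested, and 1 was called. At an unadjusted p under 0.05 there were 1, 4, 1 and 2 in the 4 comparisons in the same order. Of all genes 13.1%, 14.5%, 11.3% and 5.33% reached it. Positive estimates numbered 4, 2, 2 and 7. The median log2 fold change in estrus against proestrus was -0.523, against 0.0236 over all genes. Hspb7, a small heat shock protein best known from muscle, was 4.66, 4.53 and 4.92 on the log2 scale in proestrus and from -1.02 to 3.26 in all other libraries. It passed the filter only through the proestrus libraries, in which it is high. In the other 16 libraries it lay below the minimum of 3.32, so its differences from proestrus are set against values below that minimum. In estrus against proestrus, where 0.94% of all genes were called, it fell by 3.71 (log2 scale, SE 0.89), with an adjusted p of 0.0468. Of 7 alternative fits that did not leave out single libraries, 4 called it. With the absent directions of the matrix added to the model the adjusted p was 0.133, and within batches 2 and 3 it was 0.212. Hspb7 was called in 5 of the 16 fits that left out 1 library and still held it. In the 3 such fits without 1 of the proestrus libraries, it did not pass the filter. In proestrus against metestrus it gave 3.35 ± 0.95, with an adjusted p of 0.0975, and in males against metestrus -1.49 ± 0.78. Hspa1b had the largest difference in estrus against metestrus (-1.22 ± 0.82, adjusted p = 0.591).

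Within groups the 10 genes did not vary as a block. Over the 19 libraries with group means subtracted, the 45 pairs of members had a median Pearson r of -0.0411, with 19 positive, from -0.592 to 0.51. The strongest pairs were negative: S1pr3 with Socs3 (-0.592, Spearman -0.719), Cp with Cd44 (-0.589, Spearman -0.354) and Osmr with Hspb1 (-0.516, Spearman -0.454). The highest positive pair was Hspb1 with Cxcl10 (0.51, Spearman 0.46), followed by Cp with S1pr3 (0.41) and Serpina3n with Socs3 (0.40). These values share libraries and the directions taken out of the matrix, and they are given as a description.

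The members also differed in their spread. The within-group SD of Cxcl10 (1.5) was larger than that of 94.8% of genes within 0.5 log2 units of its mean, a reference for spread at a given log2 value that does not equate their abundance, and that of Osmr (1.39) than 81.9%. The SDs of Cd44 (0.33), Socs3 (0.53) and Stat3 (0.19) were larger than only 7.54%, 11.9% and 14.5% of genes with a like mean log2 value. That of Socs3 pools unequal groups, with an SD of 1.11 in proestrus, 0.63 in estrus, 0.26 in metestrus and 0.19 in males.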

How the data were processed

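RNA sequencing of astrocyte TRAP libraries gave 1 matrix, in which the values the authors deposited are on a log2 scale. STAR, Salmon, edgeR and the build GRCm39 appear in the submitters' processing notes with neither version nor role. How the authors scaled and filtered the values, and any offset, is not given. The name of the matrix refers to surrogate variable analysis. After centring, the 19 columns span 14 dimensions in place of 18 (11 in place of 15 after the groups), so 4 directions between libraries are absent with the groups kept, which favours separation of groups and shrinks the spread within them. Of the 2 batch directions, 98.6% and 9.95% lie in the absent space.

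Groups and batches came from the labels, and the females' hour of collection from the series' design text. Replicate numbers are names in accession order. limma 3.58.1 in R 4.3.3 (limma-trend, robust) fitted group and batch to all 19 libraries with 13 residual degrees of freedom. The tests were two-sided, with Benjamini-Hochberg adjustment over 20644 genes at a threshold of 0.05, and the fit was tested on simulated data. Scripts in Python 3.11.15 computed levels, ranges and correlations. RefSeq sequences are on GRCm38.p6, another build than the authors', and serve for the promoters alone.

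The 10 genes and the 19 lists were chosen with earlier results of these data known. The genes named are the 10 members, listed genes past the threshold, and per list and comparison the gene with the largest difference. For each member the 3 genes most alike over libraries are named, except 2 that are not reported here. Alternatives concerned the filter, centring, the batch term, the absent directions, the variance prior, single batches, single libraries and replicate numbers.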

Additional observations from a re-analysis of the deposited data

How the results depend on the processing

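The sequencing depth is unknown, so low values cannot be given a counting error, and the absent directions make p-values too small by an unknown amount. The numbers of genes called were 204 in proestrus against metestrus, 194 in estrus against proestrus, 18 in estrus against metestrus, 5 in males against metestrus and 131 for any group. Without the batch term they were 1146, about 3.6e2, 899, 10 and 2579, with 1 member called (Socs3) in the first and in the last. With the absent directions added to group and batch they were 75, 52, 0 and 32 for the first 3 and any group, and with group and absent directions but no batch term, an alternative chosen after seeing the data, 33 for the second, 54 for the third and 457 for any group. A variance prior without trend or robustness gave 49, 9 and 206 for the third, the fourth and any group, with 1 member called (Socs3) in the first, the second and for any group. Median centring gave 310 for the second, and batches 2 and 3 alone gave 1, 0 and 0 for the stages. With all 4 absent directions beside batch, Socs3 in proestrus against metestrus was 0.468 ± 3.31 (SE) in place of -2.19 ± 0.55, with its sign reversed. The sign also changed in estrus (2.22 ± 3.34) and males (-0.883 ± 2.02) against metestrus, but not in estrus against proestrus (1.76 ± 0.64). That fit was not used further.

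Leaving out each library in turn gave 59 to 251, 60 to 435, 0 to 55, 5 to 8 and 38 to 166 genes called, with 0 to 1 members in the first (Socs3 without estrus replicate 3) and 0 in the others. Socs3 kept its sign in these fits (-2.55 to -1.65 in the first, 1.16 to 2.05 in the second). Of 1143 values of the 10 members and Hspb7 under an alternative, 1090 kept direction and side of the threshold, 33 reversed, 6 newly passed and 14 no longer passed. The 6 were of Socs3 and Hspb7. All 14 were of Hspb7 in estrus against proestrus, since no member had passed in the main fit. Median centring gave 0.019 for Cd44 in proestrus against metestrus and 0.031 for Stat3 in estrus against metestrus, both negative before. With 1 library left out, proestrus against metestrus ran from -0.56 to 1.59 for Osmr, -0.37 to 0.055 for Hspb1 and -0.20 to 0.17 for Cd44. Estrus against proestrus ran from -0.94 to 0.50 for Osmr, -0.12 to 0.14 for Hspb1, -0.87 to 0.44 for Timp1, -0.41 to 0.034 for Cd44 and -0.85 to 0.20 for S1pr3. Estrus against metestrus ran from -0.80 to 1.40 for Osmr, -0.38 to 0.062 for Hspb1, -0.56 to 0.32 for Cxcl10, -0.36 to 0.65 for Cp, -0.42 to 0.017 for Cd44, -0.33 to 0.62 for S1pr3 and -0.11 to 0.053 for Stat3, and males against metestrus from -1.69 to 0.46 for Cxcl10. The cause of these changes was not tested.

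The numbers 1 to 4 in the titles of the male and metestrus libraries of batch 4 were used as a replicate block, which called 4 genes (4 higher) and 0 members. Same-numbered libraries did not deviate together (r = 0.16, 0.0259, -0.262 and -0.129), and 1 number matched its own partner best. With 4 numbers, and 4 directions between libraries absent from the matrix, these correlations cannot show whether the samples were paired.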

Other observations

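The reactive genes usually grouped as protective (A2) were mixed in direction. Of 9 tested, 5 were positive in males against metestrus, with a median log2 fold change of 0.00455 and 0 called. Ptgs2, the inducible cyclooxygenase, was the largest there (2.17 ± 0.90, SE, limma adjusted p = 0.869). The pentraxin Ptx3 gave 1.18 ± 0.70 in proestrus against metestrus and -1.49 ± 0.66 in estrus against proestrus, with adjusted p-values of 0.506 and 0.289. Emp1 gave 0.75 ± 1.08 in estrus against metestrus.

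Of 12 endothelial and mural markers, 3 had a positive log2 fold change in estrus against metestrus, where 43.5% of all genes did, with a median of -0.77. In estrus against proestrus 1 of 12 was positive, where 52% of all genes were, with a median of -0.557. None was called. At an unadjusted p under 0.05 there were 3 and 4, beside 11.3% and 14.5% of all genes, and Tek, an angiopoietin receptor, was the largest in both (-3.68 ± 1.21 and -2.97 ± 1.21, SE, adjusted p = 0.247 and 0.242). Their summed level before the log ranged from 10.29 to 10.48 in estrus, 10.42 to 11.12 in metestrus and 10.69 to 10.94 in proestrus. In proestrus against metestrus Cdh5 differed most (-1.72 ± 0.95).

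No marker of any listed cell type was called by limma, and the medians and largest log2 fold changes follow for proestrus against metestrus, estrus against proestrus, estrus against metestrus and males against metestrus in that order. Astrocyte markers had medians of -0.0987, -0.0669, -0.153 and 0.147, led by Gjb6 (-0.43), Fgfr3 (-0.42), Fgfr3 (-0.73) and Aqp4 (0.49). Neuron markers had 0.0949, 0.146, 0.143 and 0.00833, led by Slc17a7 (0.32), Slc17a7 (-0.44), Gad1 (0.42) and Camk2a (-0.37). Microglia markers had 0.214, -0.0653, -0.0114 and -0.0851, led throughout by Itgam (0.79, -2.30, -1.51 and -1.29). Oligodendrocyte markers had 0.143, 0.127, 0.255 and 0.053, led by Pdgfra (0.93), Pdgfra (-1.64), Olig2 (-0.93) and Cspg4 (0.58). Choroid plexus and ependymal markers had -0.674, 0.597, 0.0353 and -0.34, led by Ttr (-2.03), Prlr (1.92), Kcne2 (-1.36) and Clic6 (-2.60). Fibroblast and meningeal markers had -0.0872, -0.0803, -0.273 and 0.20, led by Col3a1 (1.94), Pdgfra (-1.64), Col3a1 (1.23) and Col3a1 (1.85). Among the immediate early genes Atf3 differed most in the first 2 comparisons (-0.68 and 1.11) and Fosb in the third (-0.95).

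Genes among the 3 with the highest Pearson r to each member over the 19 libraries, with group means subtracted, were as follows, as a description over libraries that share the absent directions. Osmr went with Klf11 (0.87) and Sycp2 (0.86). Stat3 went with Silc1 (0.92), Stam (0.87) and Kif21a (0.86), and Socs3 with ENSMUSG00000143383 (0.94), Gm13387 (0.89) and Gm50107 (0.89). Serpina3n was followed by Ociad1 (0.88), Emc8 (0.87) and St8sia5 (0.87), Cp by ENSMUSG00000134810 (0.91) and Bfsp1 (0.90), and Timp1 by 2010308F09Rik (0.87), Zfp94 (0.86) and Ppp1r2-ps2 (0.83). Cxcl10 was nearest to ENSMUSG00000139726 (0.90), Loxl3 (0.89) and Rxfp2 (0.89), and Cd44 to Ogfod2 (0.96), Rspo2 (0.91) and Gm31816 (0.89). S1pr3 was nearest to Tmem196 (0.91), Srl (0.90) and Zfp787 (0.90), and Hspb1 to Gm10645 (0.92), Oxld1 (0.90) and Gm17383 (0.89). No member was among the 3 nearest of another.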
